A study of Homo sapiens with 13 samples.

Results

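Regions of open chromatin at microRNA genes were compared between H82 and H146, small cell lung cancer (SCLC) lines, of which H82 is of the NEUROD1 subtype (SCLC-N). A region was counted when it lay within 2 kb of a gene annotated as a microRNA in GENCODE release 44, on chromosomes 1 to 22, and over 2 kb from the transcription start site (TSS) of every protein-coding gene. By this rule 911 H82 regions and 791 H146 regions were counted, 1702 of the 381022 regions in both atlases. These regions made up 0.495% of the 183924 H82 regions and 0.514% of the 154021 H146 regions over 2 kb from a protein-coding TSS, which are called distal regions here.

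The study treated H82 and H146 with FHD-286, a small molecule that blocks SMARCA4 and SMARCA2, the ATPases of SWI/SNF chromatin remodelling complexes, and profiled accessibility by ATAC-seq. H82 had 3 untreated and 3 FHD-286-treated libraries, and H146 had 4 untreated and 3 FHD-286-treated libraries. Treated cells received 100 nM FHD-286 over 14 days, and all cells had a wild-type (WT) genotype label. For H146, 3 untreated libraries were sequenced apart from the other untreated library and the treated libraries. The file of each line is a single list of regions made from its untreated and treated libraries together, so each line gave 1 value, no effect of FHD-286 could be read, and no test between lines was made. The lists hold no read counts, so the depth and the strength of each region are unknown. Intervals given with shares cover counting error only. The label of H82 was checked at NEUROD1, where the 1 kb on either side of the TSS was fully covered in H82 and had no region in H146.

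MicroRNAs are short RNAs cut from a hairpin in a longer transcript, and they lower the output of messenger RNAs that pair with their seed, a short stretch near the 5′ end. Many hairpins lie in introns of protein-coding genes or in long non-coding RNAs (lncRNAs) and share the start site of that host, so a region next to a hairpin need not be its promoter. In neurons, miR-124 and miR-9 are known for restraining non-neuronal genes, including parts of the REST repressor complex, and miR-7 and miR-375 are abundant in hormone-secreting and neuroendocrine cells.

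Mature sequences of a selection of the neural and neuroendocrine microRNAs described below are printed to show what the regions neighbour. Those of let-7b and miR-125b are added, since the loci MIRLET7B and MIR125B1 had wider coverage in H146. All are RefSeq sequences on GRCh38.p14, written 5′ to 3′ with the seed, bases 2 to 8, in capitals. The 15 sequences had 15 distinct seeds, and only miR-96-5p and miR-182-5p shared the leading 6 bases of theirs.
miR-9-5p: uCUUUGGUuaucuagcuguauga
miR-9-3p: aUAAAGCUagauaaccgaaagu
miR-7-5p: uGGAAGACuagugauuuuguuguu
miR-375-3p: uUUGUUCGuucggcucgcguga
miR-137-3p: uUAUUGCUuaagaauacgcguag
miR-129-5p: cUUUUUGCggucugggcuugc
miR-153-3p: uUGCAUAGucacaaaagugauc
miR-218-5p: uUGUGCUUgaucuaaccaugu
miR-219a-5p: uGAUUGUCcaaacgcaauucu
miR-184: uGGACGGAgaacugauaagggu
miR-183-5p: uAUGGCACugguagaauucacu
miR-96-5p: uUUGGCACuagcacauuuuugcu
miR-182-5p: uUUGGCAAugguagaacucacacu
let-7b-5p: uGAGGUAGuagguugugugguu
miR-125b-5p: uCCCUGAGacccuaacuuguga

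The 3 MIR9 hairpins are shown because they give the same mature microRNAs from 3 chromosomes while their surroundings differed between the lines. MIR9-1 is at chr1:156420341-156420429 on the minus strand inside the lncRNA gene MIR9-1HG, MIR9-2 at chr5:88666853-88666939 on the minus strand inside LINC00461, and MIR9-3 at chr15:89368017-89368106 on the plus strand inside MIR9-3HG (hg38). Capitals mark miR-9-5p and then miR-9-3p in each hairpin, and these were identical at the 3 loci.
MIR9-1: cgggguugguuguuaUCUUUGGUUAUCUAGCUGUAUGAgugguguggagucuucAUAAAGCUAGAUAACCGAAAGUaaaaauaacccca
MIR9-2: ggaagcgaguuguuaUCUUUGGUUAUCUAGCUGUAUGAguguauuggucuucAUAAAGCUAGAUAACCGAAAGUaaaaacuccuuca
MIR9-3: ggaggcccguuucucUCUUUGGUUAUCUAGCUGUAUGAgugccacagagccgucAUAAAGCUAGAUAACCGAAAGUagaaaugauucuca

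Of the 1759 microRNA genes, 540 (30.7%) had a counted region in both lines. A further 168 genes (9.55%) had a counted region in H82 and no region of any kind within 2 kb in H146, and 106 genes (6.03%) had the reverse. These 9.55% and 6.03% are the background for each list below. Another 43 genes had a counted region in 1 line and a region near a protein-coding TSS in the other, 192 had regions near a protein-coding TSS only, and 710 (40.4%) had none. In 674914 consecutive windows of 4.08 kb, the size of a microRNA gene with its flanks, 16.6% held a distal region in both lines, 9.04% in H82 only and 5.37% in H146 only. MicroRNA genes thus held regions in both lines more often than windows of the genome did, while their H82-only and H146-only shares were close to those of the windows.

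Neural and neuroendocrine microRNA genes had regions more often in H82 than in H146. Of the 32 listed genes, 26 (81.2%, 95% interval 64.7 to 91.1) had a region of any kind within 2 kb in H82 and 19 (59.4%, 42.3 to 74.5) in H146, against 53.3% and 49.7% of all microRNA genes. A counted region was found in both lines at 16 genes and in H82 with no H146 region at 7, MIR124-1, MIR124-2, MIR9-3, MIR7-1, MIR184, MIR218-2 and MIR219A2. Those 7 were 21.9% of the list (11.0 to 38.8), against the background of 9.55%. MIR124-1 and MIR124-2 were H82-only under every alternative that kept chromosome 8. MIR7-1, MIR218-2 and MIR184 were not when only regions of at least 500 bp were taken, MIR7-1 and MIR218-2 not with 1 kb of flank, MIR9-3 and MIR219A2 not with 5 kb, and MIR7-1 not with the TSSs of all protein-coding transcripts. No listed gene had the reverse, and a count of 0 among 32 allows a share of up to 9.38%, which does not exclude the background of 6.03%. These genes were listed with earlier results of the same data known, so the counts are a description of the loci. The share of the hairpin and its 2 kb flanks covered by regions of any kind, called the covered share here, was higher in H82 at 18 genes, higher in H146 at 5 and equal at 9, against 519, 459 and 781 of all 1759 genes. Neighbours such as MIR96, MIR183 and MIR182, or MIR132 and MIR212, share regions and are not separate among the 18. Its median was 38.4% in H82 and 20.2% in H146, against 5.28% and 0% over all microRNA genes.

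**Figure D1:**
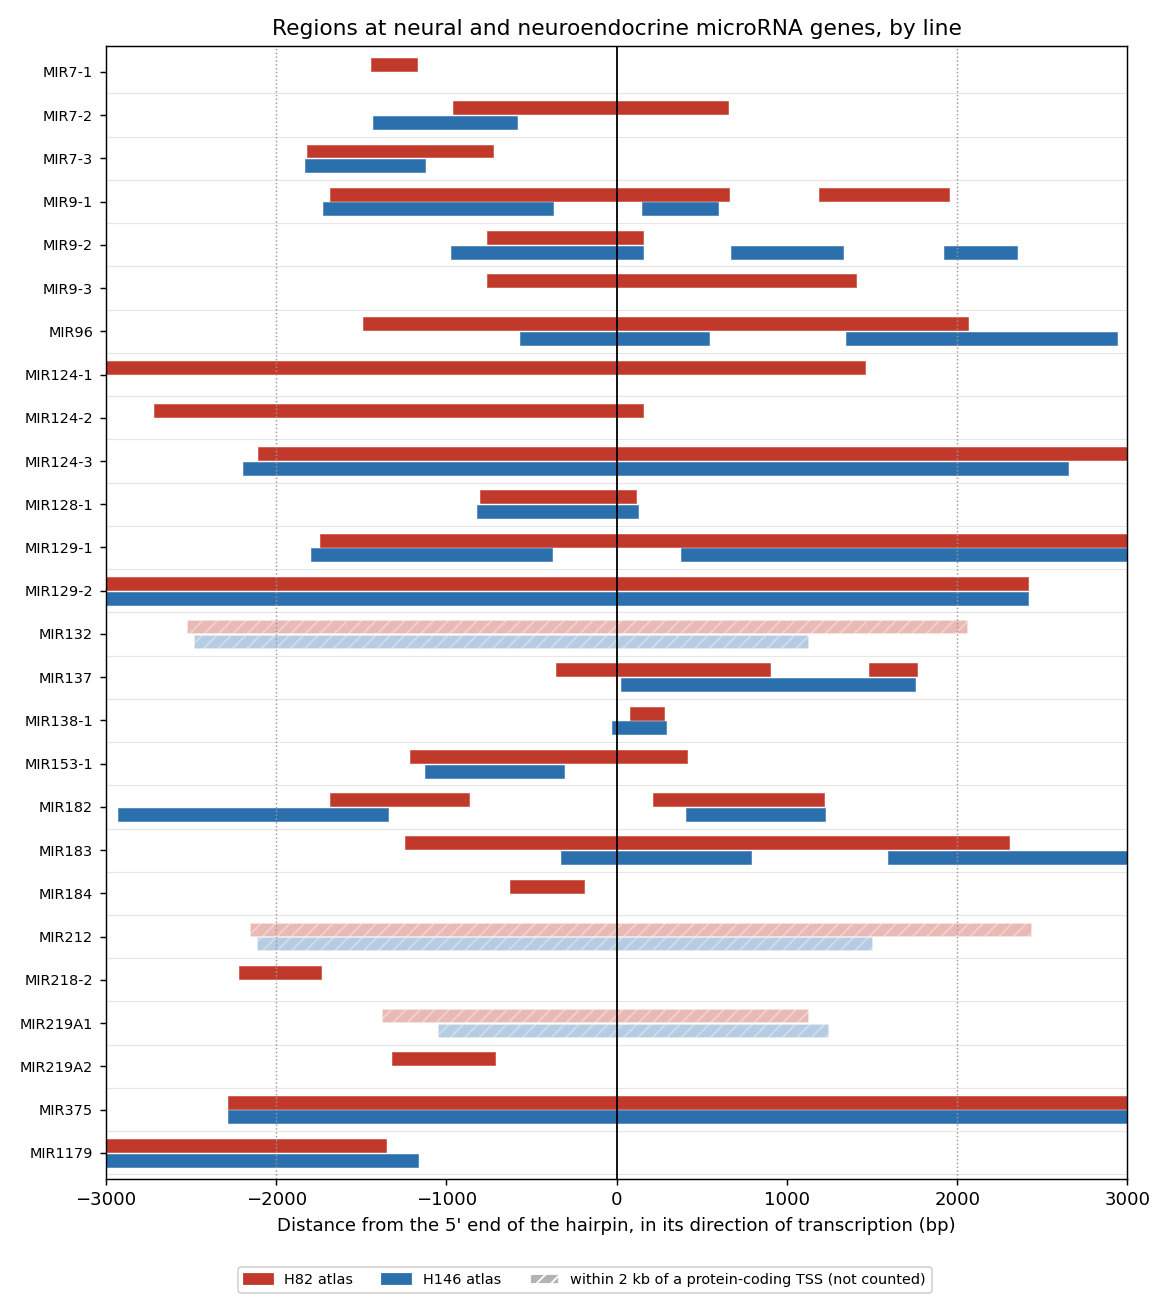
Regions of the H82 atlas (red, upper) and the H146 atlas (blue, lower) at the 26 neural and neuroendocrine microRNA genes with any region within 2 kb, placed by distance from the 5′ end of the hairpin in bp, with negative values upstream. Dotted lines mark 2000 bp, and pale hatched bars are regions within 2 kb of a protein-coding TSS, which were not counted. Red bars stand alone at MIR124-1, MIR124-2, MIR9-3, MIR7-1, MIR184, MIR218-2 and MIR219A2.

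The largest difference in covered share among the 32 genes was at MIR124-1. The 3 genes of the MIR124 family encode miR-124, a microRNA of differentiated neurons, and all 3 had an H82 region over the hairpin, against 1 of 3 in H146. At MIR124-1 (chr8:9903388-9903472, minus strand, in MIR124-1HG) an H82-only region of 7518 bp, chr8:9902011-9909528, ran from -6056 to 1461 bp of the hairpin's 5′ end, and the nearest H146 region was 30195 bp away. H82 regions thus covered 84.7% of the window there and H146 regions 0%. At MIR124-2 (chr8:64379149-64379257, plus strand, in MIR124-2HG) an H82-only region of 2869 bp, chr8:64376433-64379301, ran from -2716 to 152 bp, and the nearest H146 region was 20021 bp away. Both H82-only regions covered the hairpin and reached further upstream than downstream. The third locus, MIR124-3 (chr20:63178500-63178586, plus strand), was fully covered in both lines, by an H82 region of 8145 bp and an H146 region of 4849 bp. The lines therefore differed at MIR124-1 and MIR124-2 and not in whether the family had an open locus.

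The regions at MIR124-1 and MIR124-2 were wide for regions without a counterpart. H82-only regions at microRNA genes were narrow, with a median of 378.5 bp (95% interval 350 to 427), and 12 of the 310 (3.87%) were 2 kb or wider, against 1.51% of all H82-only distal regions. The region at MIR124-1 was the widest of the 310, that at MIR124-2 ranked 7 and that at MIR9-3 ranked 9. None of the 181 H146-only regions at microRNA genes reached 2 kb, and the widest had 1418 bp.

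At the MIR9 loci, whose hairpins are printed above, the lines differed at each gene and not in the same direction. MIR9-3 had an H82-only region of 2168 bp, chr15:89367256-89369423, over the hairpin, a covered share of 53.0%, and its nearest H146 region was 3793 bp away. MIR9-1 had regions in both lines, with covered shares of 76.1% in H82 and 44.2% in H146. There H82 had a region of 2345 bp across the hairpin, where H146 had 1354 bp upstream and 452 bp downstream with the hairpin itself between them. H82 also had a separate region of 768 bp downstream that no H146 region overlapped. MIR9-2 was the opposite case, with 22.3% covered in H82 and 47.6% in H146. Both lines had a region over the MIR9-2 hairpin that began at the same base, 88666786, with 913 bp in H82 and 1126 bp in H146, and H146 had 2 further regions of 658 and 427 bp downstream. On chromosome 15, which holds MIR9-3, MIR184 and MIR7-2, 61.6% of all H82 distal regions lacked an H146 counterpart, against 42.8% over all chromosomes, and its part in the differences at these loci was not tested.

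The other neural microRNA genes mostly had regions in both lines. MIR129-2, a neuronal microRNA gene in 2 lncRNA genes, lay in a region of 9335 bp with identical ends in both lists, chr11:43574476-43583810. MIR128-1, in an intron of R3HDM1, had covered shares of 22.5% in H82 and 23.2% in H146. MIR137, a microRNA of neural progenitors, had 37.5% in H82 and 42.2% in H146, a difference that turned to 8.61 points higher in H82 when only 1 kb of flank was taken. MIR138-1 had the smallest of these regions, 200 bp in H82, the minimum width in the lists, and 316 bp in H146.

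MIR129-1 and MIR153-1, which lies inside the neuroendocrine gene PTPRN, were covered further in H82. Their covered shares were 93.6% in H82 and 76.5% in H146 at MIR129-1, and 39.8% and 20.0% at MIR153-1, and in both cases the H82 region crossed the hairpin and the H146 regions stopped 304 and 312 bp from it. MIR219A2 and MIR218-2 had only an upstream H82 region, of 606 bp, 716 bp from the MIR219A2 hairpin, and of 482 bp, 1739 bp from the MIR218-2 hairpin. MIR218-2 is in an intron of SLIT3, which encodes an axon guidance ligand. MIR132 and MIR212, activity-regulated microRNAs of neurons, and MIR219A1 lay in regions of both lines that were within 2 kb of a protein-coding TSS and were not counted. MIR128-2, MIR138-2, MIR153-2 and MIR218-1 had no region within 2 kb in either line.

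MIR375, whose microRNA acts in islet and other endocrine cells, did not differ. Its hairpin (chr2:219001645-219001708, minus strand, intergenic) lay in a region of 8291 bp, chr2:218995703-219003993, that was identical base for base in the 2 lists and covered the whole window. The region ended 2281 bp from the nearest protein-coding TSS, just outside the limit of the rule. Identical ends were not particular to it, since 82 regions at microRNA genes had them, 9.0% of those in H82 and 10.4% of those in H146, against 9.86% and 11.8% of distal regions.

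The 3 MIR7 genes, which all encode miR-7, had a counted region in H82 in every case and in H146 in 2. MIR7-1 (chr9:83969748-83969857, minus strand), in an intron of HNRNPK, had an H82-only region of 269 bp, chr9:83971030-83971298, that lay 1173 bp upstream of the hairpin. MIR7-2 (chr15:88611825-88611934, plus strand) had a region of 1617 bp over the hairpin in H82, while in H146 the region of 851 bp stopped 584 bp upstream. MIR7-3 (chr19:4770670-4770779, plus strand, in MIR7-3HG) had upstream regions of 1095 bp in H82 and 706 bp in H146. MIR1179, next to MIR7-2, had 15.8% covered in H82 and 20.4% in H146, an order that turned with 5 kb of flank.

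The miR-183 cluster, known from sensory organs, was covered further in H82. MIR183 and MIR96 lay in a single H82 region of 3550 bp, chr7:129772708-129776257, where H146 had 2 regions of 1591 and 1114 bp. At MIR96 H82 regions covered 87.0% and H146 regions 45.3% of the window, at MIR183 81.6% and 39.7%, and at MIR182 44.4% and 36.0%. These 3 genes share regions and are not separate observations. MIR184 (chr15:79209788-79209871, plus strand) had an H82-only region of 435 bp that ended 193 bp upstream of the hairpin, and the nearest H146 region was 16280 bp away. MIR95 and MIR204 had no region within 2 kb in either line.

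**Figure D2:**
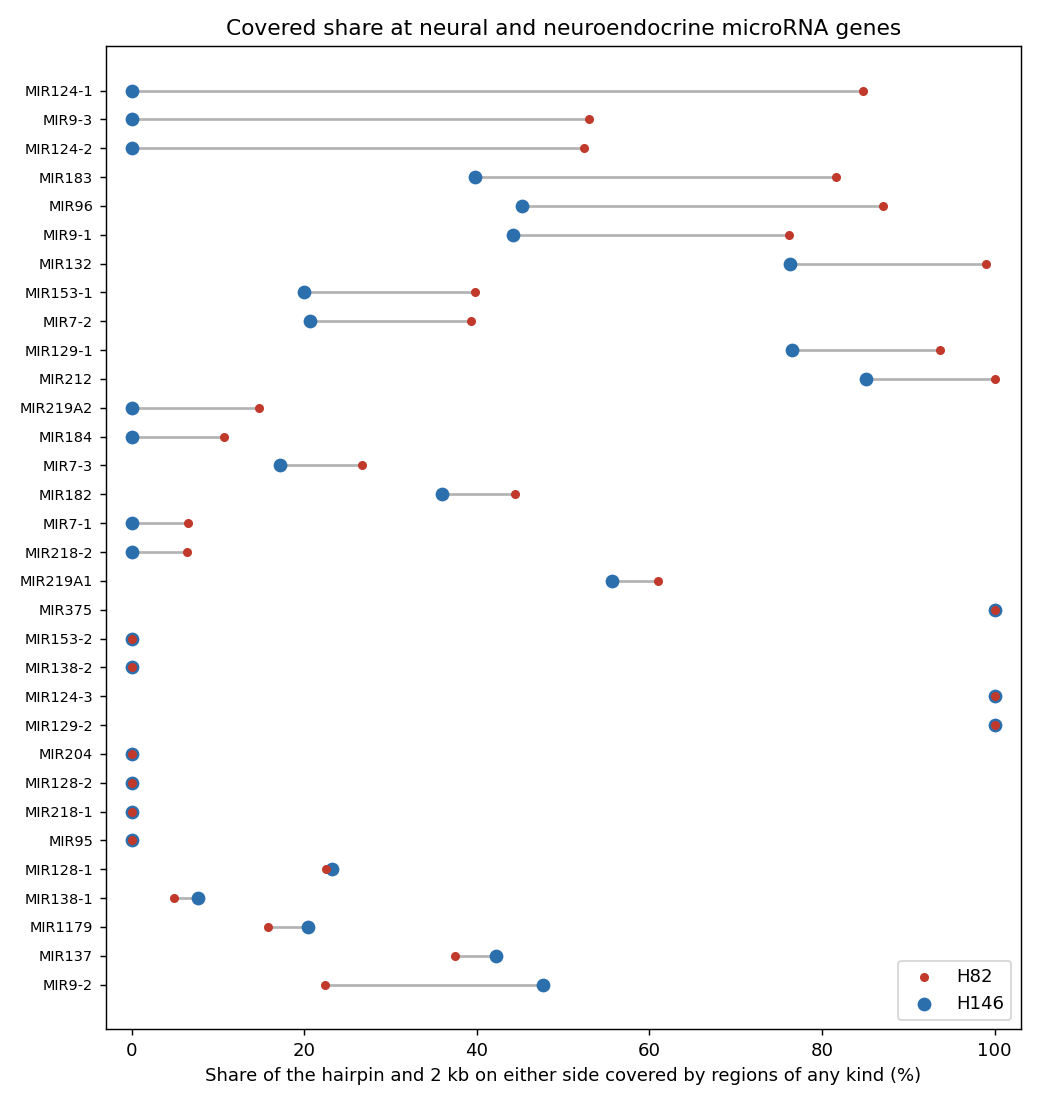
Covered share in percent, the part of the hairpin and 2 kb on either side that regions of any kind covered, for the 32 neural and neuroendocrine microRNA genes in H82 (small red points) and H146 (large blue points), sorted by the difference. The 18 genes at the top were covered further in H82, led by MIR124-1 at 84.7% against 0%, and the 5 at the bottom further in H146, led by MIR9-2 at 47.6% against 22.3%.

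**Figure D3:**
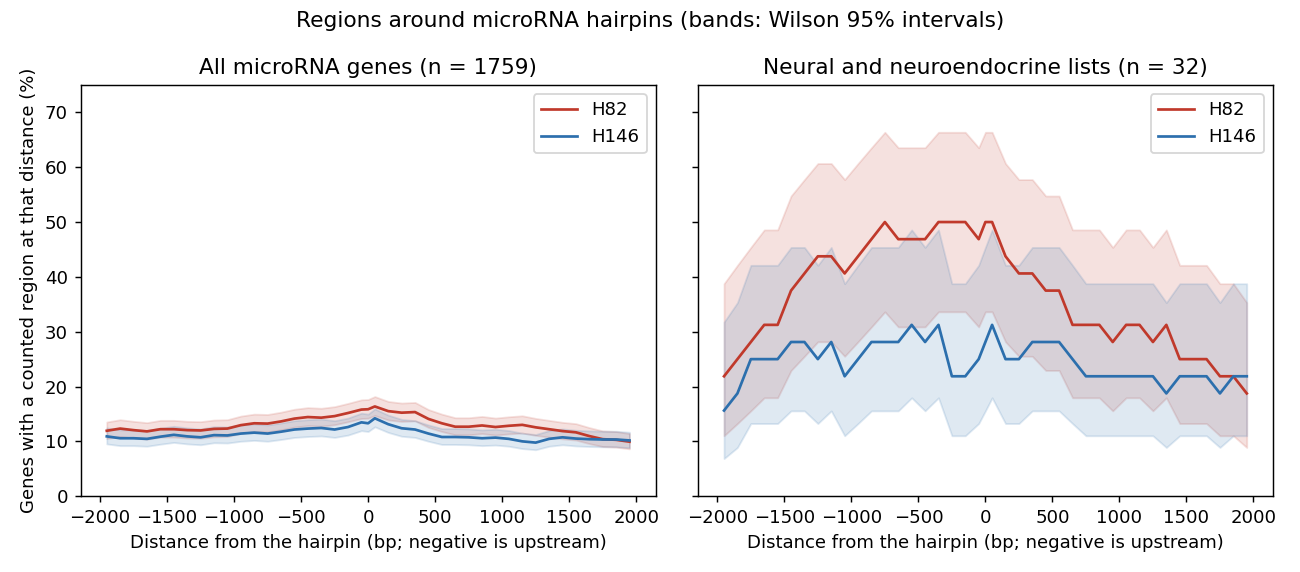
Percent of microRNA genes with a counted region at each distance from the hairpin, in steps of 100 bp, for all 1759 genes (left) and the 32 neural and neuroendocrine genes (right), with Wilson 95% bands. Over the hairpin itself the share was 15.9% in H82 and 13.3% in H146 for all genes, and 50% and 28.1% for the 32 genes.

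In the position plot, counted H82 regions at the 32 genes lay upstream of the hairpin more often than downstream at most distances. The gap was widest from 700 to 800 bp. There 50% of the genes (33.6 to 66.4) lay under a counted H82 region upstream and 31.2% (18.0 to 48.6) downstream, and these intervals overlap. From 1900 to 2000 bp the shares were 21.9% and 18.8%, and within 100 bp the order was reversed, with 46.9% upstream and 50% downstream. A counted region covered the hairpin at 16 of the 32 genes in H82 (50%, 33.6 to 66.4) and at 9 in H146 (28.1%, 15.6 to 45.4), and these intervals overlap. Over all microRNA genes the hairpin was covered at 279 in H82 and 234 in H146, with 182 covered in both. From 1900 to 2000 bp upstream the shares were 11.9% and 10.9% over all genes, so that the rise toward the hairpin was small in the whole set.

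To show what H82-only regions at neural loci hold, the middle 300 bases of those at MIR218-2 (chr5:168770085-168770384) and MIR184 (chr15:79209229-79209528) are printed, with those of the H146-only region at MIR144 and MIR451A (chr17:28861565-28861864), microRNA genes of the red cell lineage. They were chosen after their values were seen, as narrow regions of either class, and are read from the hg38 plus strand. E-box words, the kind bound by basic helix-loop-helix factors, are in capitals. They are CAGATG, the word preferred by NEUROD1, which reads CATCTG on the opposite strand, and the word CAGCTG, another E-box.
MIR218-2, H82-only: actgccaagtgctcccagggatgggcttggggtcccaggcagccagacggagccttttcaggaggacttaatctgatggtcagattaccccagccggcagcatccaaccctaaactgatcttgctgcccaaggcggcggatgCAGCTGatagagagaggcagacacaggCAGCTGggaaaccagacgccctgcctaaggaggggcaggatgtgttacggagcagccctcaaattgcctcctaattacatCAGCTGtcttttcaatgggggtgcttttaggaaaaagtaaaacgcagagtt
MIR184, H82-only: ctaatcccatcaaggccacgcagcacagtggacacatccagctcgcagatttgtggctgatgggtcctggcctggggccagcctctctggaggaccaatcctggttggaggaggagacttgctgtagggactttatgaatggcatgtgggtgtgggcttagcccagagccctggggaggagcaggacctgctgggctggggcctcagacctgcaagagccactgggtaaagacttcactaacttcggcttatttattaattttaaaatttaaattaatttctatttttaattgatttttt
MIR144 and MIR451A, H146-only: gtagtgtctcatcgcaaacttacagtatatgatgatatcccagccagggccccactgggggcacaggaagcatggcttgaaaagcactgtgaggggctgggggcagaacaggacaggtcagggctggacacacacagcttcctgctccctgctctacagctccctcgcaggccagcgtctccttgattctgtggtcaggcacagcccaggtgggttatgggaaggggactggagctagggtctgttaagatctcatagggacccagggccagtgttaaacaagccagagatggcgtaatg
The region at MIR218-2 held 3 CAGCTG words and no CAGATG. Among 4289 H82 distal regions within 10 bp of its width, 33.5% held CAGCTG at least once and 1.38% at least 3 times. The regions at MIR184 and at MIR144 held neither word, and 38.8% and 30.5% of distal regions of like width in their line held CAGATG. A match of letters is a description and not a binding site.

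Over all line-only regions at microRNA genes, CAGATG occurred 1.09 times per kb in H82 (95% interval 0.944 to 1.25, 203 matches) and 0.801 times per kb in H146 (0.602 to 1.05, 54 matches). All line-only distal regions had 1.25 and 0.897. TAATCC, the word of OTX2 and CRX, with GGATTA on the other strand, occurred 0.676 times per kb in H82-only regions (0.563 to 0.805) and 0.252 in H146-only regions (0.147 to 0.404). Both were below the values of all line-only distal regions, 1.27 per kb in H82 and 0.451 in H146. CAGCTG occurred 1.04 and 0.861 times per kb, against 0.810 and 0.879. TGTTTAC, the word of FOXA factors, with GTAAACA on the other strand, was rare, with 17 matches in H82 (0.0912 per kb) and 11 in H146 (0.163 per kb), against 0.130 and 0.313. The words read backwards, which keep the base composition, had 0.198 for CAGATG, 0.0161 for CAGCTG, 0.392 for TAATCC and 0.145 for TGTTTAC per kb in the H82-only regions. Every word but TGTTTAC was thus more frequent in the H82-only regions than its reversed form. The same held in all H82-only distal regions, so it was not particular to microRNA genes. The reversed forms there had 0.238 for CAGATG, 0.0163 for CAGCTG, 0.520 for TAATCC and 0.175 for TGTTTAC per kb. In the H146-only regions at microRNA genes TAATCC, at 0.252, was not more frequent than its reversed form, at 0.282. TGTTTAC was not either, at 0.163 against 0.193. In all H146-only distal regions TAATCC had 0.451 against 0.408 and TGTTTAC 0.313 against 0.253. The reversed CAGCTG holds a CpG, a rare pair of bases.

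Base composition differed too. Regions at microRNA genes had a median GC content of 58.0% in H82 (57.0 to 58.8) and 57.6% in H146 (56.1 to 58.6), against 48.8% and 48.4% of distal regions. GC content was 56.3% in the H82-only and 52.4% in the H146-only regions at microRNA genes. Its part in the word counts was not tested.

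Of the other lists, the genes of the let-7, miR-100 and miR-125 families leaned toward H146. The let-7 microRNAs restrain growth-promoting genes and are high in differentiated cells. The covered share was higher in H146 at 8 of the 16 genes, higher in H82 at 1 and equal at 7, against 459, 519 and 781 of all 1759 genes. Several of the 8 share regions, since MIR99B, MIRLET7E and MIR125A lie next to 1 H146 region and MIRLET7A3 and MIRLET7B share others. At MIR125B1 (chr11:122099757-122099844, minus strand, in MIR100HG) it was 67.4% in H146 and 6.07% in H82, through an H146 region of 3145 bp over the hairpin. At MIRLET7B (chr22:46113686-46113768, plus strand, in MIRLET7BHG) it was 61.8% and 9.28%, with H146 regions of 880, 239 and 2842 bp against an H82 region of 379 bp that none of them overlapped. MIRLET7A3, next to it, had 46.1% and 9.30%, and MIRLET7A2 had an H146-only region of 1169 bp that ended 1963 bp from the hairpin. MIRLET7A1, MIRLET7F1, MIRLET7D, MIRLET7G, MIRLET7C, MIR99A and MIR100 had no region within 2 kb in either line. MIR125B2, which gives the same miR-125b-5p as MIR125B1, was the 1 gene covered further in H82, at 14.9% against 8.73% in H146. In the list as a whole 1 gene (6.25%) was H146-only and none was H82-only.

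The growth-promoting clusters mostly had regions in both lines and were covered further in H146. Of 14 genes in the MIR17 cluster, the MIR106B cluster and PVT1, 12 had a counted region in both lines and 12 had a higher covered share in H146, against 459 of all 1759 genes, or 251 of the 540 with a counted region in both lines. MIR1205, in PVT1, had 9.60% in H82 and 41.4% in H146, and MIR1206 had no region in either line. MIR17 had 23.4% in H82 and 29.5% in H146, from regions of 2772 and 2938 bp upstream and an H146-only region of 213 bp, 239 bp from the hairpin. The genes of 1 cluster share these regions. MIR1204, in PVT1 next to MYC, lay in an H82 region of 282037 bp that reached a protein-coding TSS, against an H146 region of 4326 bp, and without regions of 10 kb or more the covered share was 72.9 points higher in H146 there.

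In the epithelial and mesenchymal lists a single gene each was line-only, while covered shares often differed. They were higher in H82 at 4 and in H146 at 8 of the 13 epithelial genes, and at 7 and 3 of the 18 mesenchymal and stress genes. Of all 1759 genes they were higher in H82 at 519 and in H146 at 459. Among the 8, MIR449A, MIR449B and MIR449C share regions at a protein-coding TSS, which were not counted, and so do MIR34B and MIR34C. Among the 7, MIR23A, MIR27A and MIR24-2 share an H82 region of 1276 bp. Among the 3, MIR29A and MIR29B1 share regions. MIR34A, a target of p53, had an H82-only region of 362 bp that ended 674 bp from the hairpin. MIR205, a microRNA of squamous epithelium, had 20.3% covered in H82 and 63.6% in H146, where a region of 2810 bp crossed the hairpin. MIR200B, MIR200A and MIR429, which maintain epithelial identity, lay in an H82 region of 7107 bp that was not counted because it came within 1445 bp of a protein-coding TSS, and H146 had a region of 259 bp upstream of MIR200B and MIR200A and another of 200 bp downstream of MIR429. The covered shares there were 94.5% in H82 against 6.32% in H146 at MIR200B, 100% against 11.2% at MIR200A and 100% against 4.90% at MIR429, a wider gap at each than at MIR124-1. These 3 genes share regions. MIR200C and MIR141 were covered in both lines, MIR200C fully and MIR141 at 90.3% in H82 and 96.5% in H146. In the mesenchymal and stress list, MIR199A1 had an H146-only region of 325 bp, 1308 bp from the hairpin. MIR22 had a region at a protein-coding TSS in both lines, and H82 had a further counted region of 200 bp, 2048 bp from a TSS. Its covered shares were 58.5% in H82 and 53.6% in H146. MIR199B had the largest difference, 84.4% in H82 against 48.5% in H146. MIR21, MIR31, MIR155, MIR214 and MIR199A2 had no region within 2 kb in either line.

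The other-tissue list was H146-only at 3 of 22 genes, MIR122, MIR144 and MIR451A (13.6%, background 6.03%), and 13 genes had none in either line. MIR122, the microRNA of hepatocytes, had an H146-only region of 484 bp, 1228 bp upstream of the hairpin. MIR144 and MIR451A share 1 H146-only region of 401 bp, so the 3 genes are 2 regions. MIR142, a blood-cell microRNA, had 100% covered in H82 and 15.9% in H146 by regions near a protein-coding TSS, and the H82 region had 11329 bp. Without regions of 10 kb or more the order turned, with 15.9 points more in H146. The HOX-cluster microRNAs had no line-only gene among 6, and the largest difference was 46.9% in H82 against 32.2% in H146 at MIR615. A count of 0 among 6 allows a share of up to 50%. MIR196A2 had an H82 region near a protein-coding TSS, which was not counted, and no H146 region within 2 kb. The imprinted 14q32 cluster had regions at 7 of its 54 genes in H82 and 4 in H146, with 46 at none, and the primate cluster of chromosome 19 at 0 and 1 of its 50. Of all microRNA genes, 53.3% had a region of any kind in H82 and 49.7% in H146. At 14q32, MIR376C, MIR376A2, MIR654 and MIR376B lie by 1 H82-only region of 377 bp. MIR337 and MIR665 share regions too, so the 7 and 4 genes are not separate observations.

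**Figure D4:**
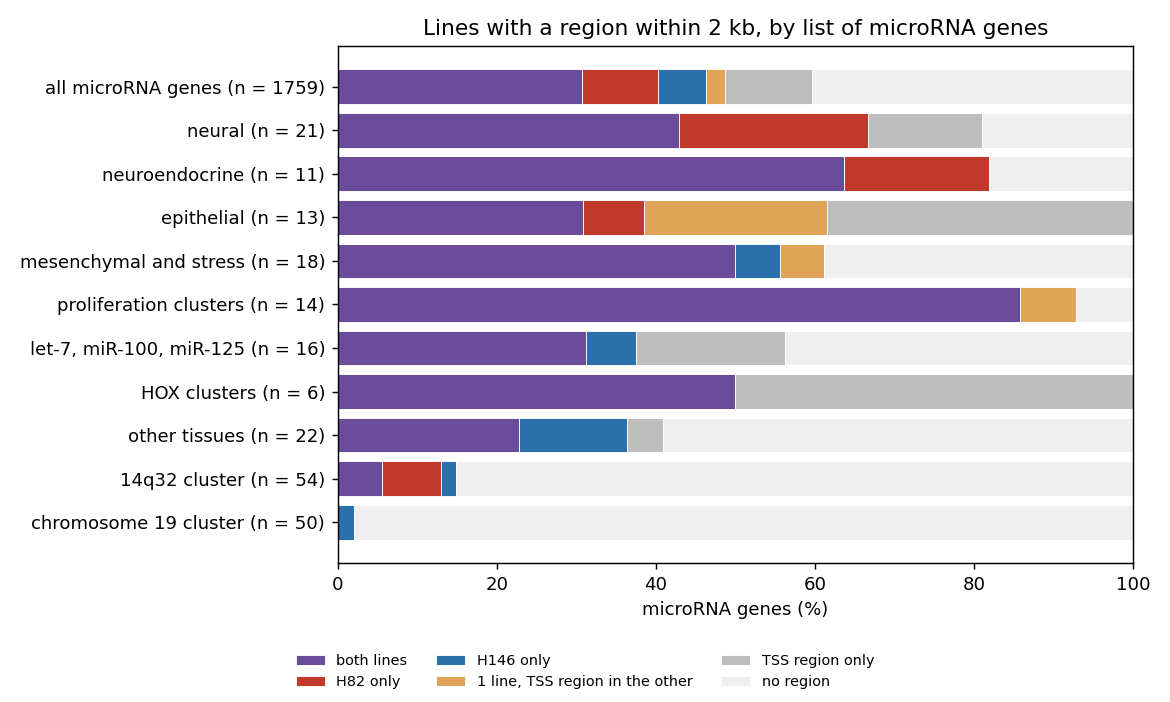
Percent of microRNA genes in each list with a counted region within 2 kb in both lines or in a single line, in 1 line with a region near a protein-coding TSS in the other, with such TSS regions only, or with none. H82-only genes made up 23.8% of the 21 neural genes and 18.2% of the 11 neuroendocrine genes, against 9.55% of all 1759.

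Outside the lists, the 5 largest differences in either direction were taken. The covered share was higher in H82 at MIR6726 in ACAP3 (100% against 4.92%), MIR1909 in REXO1 (96.3% against 6.35%), MIR4758 in LAMA5 (82.5% against 0%), MIR6808 in DVL1 (85.7% against 8.47%) and MIR6859-4 (100% against 30.1%). It was higher in H146 at MIR6511B2 (92.0% against 23%), MIR6770-2 (59.5% against 7.73%), MIR4763 next to MIRLET7B (59.2% against 9.26%), MIR943 in NELFA (100% against 58.1%) and MIR3620 in ARF1 (66.8% against 26.8%). MIR6859-4, MIR6511B2 and MIR6770-2 belong to families with near-identical copies, where short reads can be placed at the wrong copy, so their values are uncertain. At MIR6808 the H82 regions reached a protein-coding TSS and were not counted, so by the rule only H146 had a counted region there. At MIR6726 and MIR6808 the order turned when regions of 10 kb or more were left out.

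Where 1 line had no region within 2 kb, the highest number of regions in the other was 3 in H82 and 2 in H146. The H82 cases were MIR637 in DAPK3, MIR631, MIR6867 in RAPGEFL1, MIR455 in COL27A1 and MIR4513. Those of H146 were MIR5681A, MIR634 in PRKCA, MIR370 in the 14q32 cluster, MIR378D1 in C4orf50 and MIR346 in GRID1. The highest covered shares among them were 69.9% at MIR637 and 29.5% at MIR5681A. At MIR637 the H82 regions of 2992 and 2645 bp overlapped H146 regions. The nearest H146 region lay 2004 bp from that hairpin, just outside the window, so the contrast there rests on the cutoff. At MIR6867 the H82 region of 1758 bp was shared too. The widest counted regions were shared. In H146 the widest had 30420 bp, chr14:104090349-104120768, over MIR203A and MIR203B, and 5 H82 regions covered 91.1% of it. In H82 it had 23444 bp, chr17:81113458-81136901, over MIR657, MIR3065, MIR338 and MIR1250, and 2 H146 regions, of which 1 had 21783 bp, covered 97.3% of it. MIR338 is a microRNA of neurons and oligodendrocytes, in AATK. The next widest in both lines lay at MIR6724-3 and MIR6724-4 in the repeated ribosomal DNA of chromosome 21, with 16955 to 17985 bp, where placement is uncertain too.

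Families of genes with several copies were compared by their number of loci with regions. Families were taken as genes whose symbols differ only in a final number after a hyphen. Those numbered without a hyphen, such as MIR219A1 and MIR219A2, were left out. Of the 66 families, 52 had regions at as many loci in H82 as in H146, 10 at more loci in H82 and 4 at more in H146. No region lay at any locus in either line in 26 of the 52. MIR124 (3 against 1 of 3), MIR9 (3 against 2 of 3) and MIR7 (3 against 2 of 3) were among the 10, with MIR218, MIR16, MIR1302, MIR3926, MIR4283, MIR4509 and MIR4650. The 4 with more loci in H146 were MIR3130, MIR3670, MIR521 and MIR5701. Sequence copies within a family are not independent where reads fit more than 1 of them.

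Taken over all regions, those at microRNA genes were shared between the lines more often than distal regions were. In H82, 310 of 911 (34.0%, 95% Wilson interval 31.0 to 37.2) had no overlap of at least 1 bp in H146, against 42.8% of distal regions. In H146 it was 181 of 791 (22.9%, 20.1 to 25.9), against 31.7%. Wider regions were shared more often, and regions at microRNA genes were wider, with a median of 602 bp in both lines against 455 and 468 bp. With the distal regions weighted to the widths of the regions at microRNA genes, the line-only shares would be 37.7% and 26.3%, which left the observed shares lower by a smaller margin. They were lower in 6 of the 7 width classes in each line. For H146 this count says little about the wide classes. The classes from 2000 bp and from 5000 bp had 0 line-only regions of 93 and of 38. Distal regions there were line-only in 0.442% and 0.199% of cases, so hardly any could be found and these classes cannot decide. In the class from 1000 bp the H146 shares were 4.51% (2.08 to 9.49) and 5.03%. The difference over all widths was lost when sharing required an overlap of 50% of both regions, with 56.6% against 55.9% in H82 and 48.7% against 47.4% in H146.

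**Figure D5:**
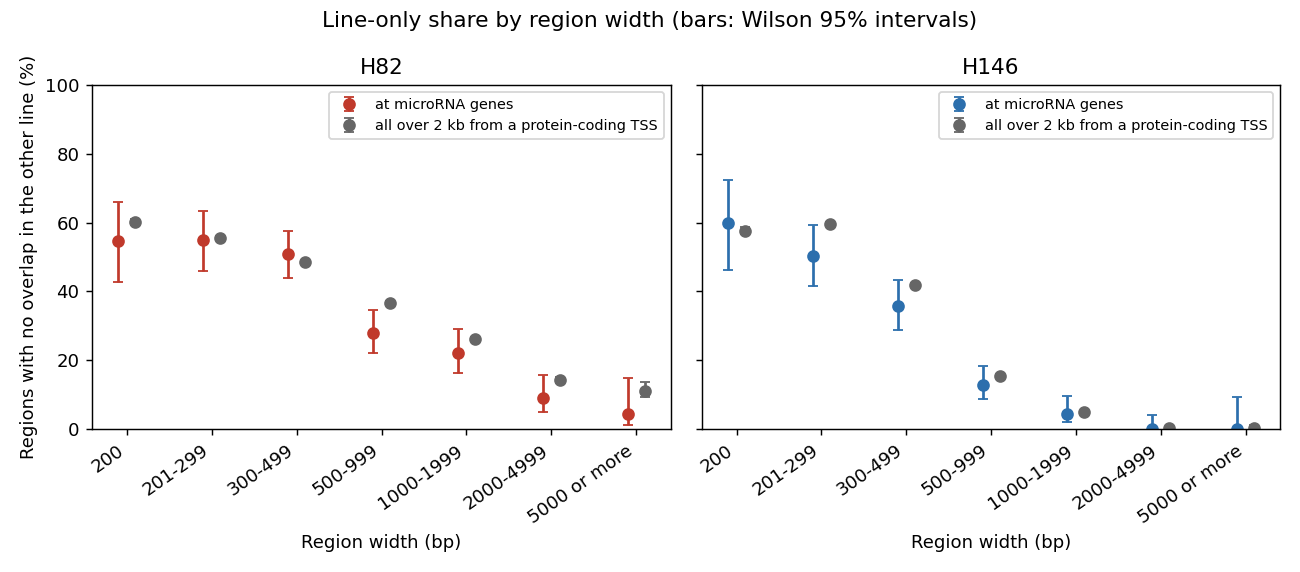
Percent of regions without an overlapping region in the other line, by region width in bp, for regions at microRNA genes (coloured) and all distal regions (grey) in H82 (left) and H146 (right), with Wilson 95% intervals. The share fell with width in both sets, from 54.5% at 200 bp to 4.44% at 5000 bp or more in H82, and from 60% to 0% in H146.

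The median width of shared regions at microRNA genes was 843 bp for H82 (740 to 966) and 790.5 bp for H146 (728 to 904), and that of line-only regions 378.5 bp (350 to 427) and 297 bp (273 to 327). Shared regions covered a hairpin more often, 33.8% (30.1 to 37.7) against 15.2% (11.6 to 19.6) of line-only regions in H82 and 30.0% (26.5 to 33.8) against 13.3% (9.07 to 19) in H146. A wider region reaches a hairpin more easily, and the share at matched width was not tested. Regions that missed the hairpin lay upstream and downstream of it about as often, with 51.9% upstream in H82 (48.1 to 55.7) and 52.1% in H146 (48.0 to 56.1).

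The surroundings of the regions differed from those of distal regions. Their centre lay in a protein-coding gene in 70.6% of cases in H82 and 66.9% in H146, against 50.8% and 50%. They lay within 1 kb of a lncRNA TSS in 9.55% (7.81 to 11.6) and 10.6% (8.66 to 13.0), against 3.22% and 3.42%. Among them the shared regions accounted for most of this, with 13.0% in H82 and 13.1% in H146, against 2.90% and 2.21% of line-only regions. By host, H82-only genes were 11.4% of the 940 microRNA genes in protein-coding hosts and 4.52% of the 332 in lncRNA hosts, and H146-only genes 7.02% and 3.01%.

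The limits of the rule cut through a continuous range. In H82 161 counted regions lay 1500 to 2000 bp from a hairpin and 153 uncounted distal regions lay over 2000 and up to 2500 bp away, and in H146 there were 156 and 122. A further 280 H82 and 267 H146 regions near a microRNA gene were left out for a protein-coding TSS within 2 kb. Of the counted regions, 61 in H82 and 62 in H146 lay within 2 kb of more than 1 microRNA gene.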

How the data were processed

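ATAC-seq was done by the study on untreated and FHD-286-treated H82 and H146 cells. Per the study's methods and the submitters' processing notes, the authors trimmed reads with Trim Galore 0.4.4, aligned them to hg38 with Bowtie2 2.3.4, removed duplicates, called peaks per sample with MACS2, removed blacklisted regions and merged peaks within 500 bp into 1 deposited atlas per line. The deposited files hold only the chromosome, start and end of each region in bp, and no signal, p-value or sample column. Regions were assigned to microRNA genes and TSSs of GENCODE release 44 in Python 3.11.15 (numpy 2.4.6, pandas 2.3.3, scipy 1.17.1), and overlaps were checked with bedtools 2.31.1. Interval functions were tested on simulated data. Of 1759 microRNA genes, 1601 had a RefSeq entry by symbol. Shares have Wilson 95% intervals, match densities exact Poisson intervals and medians order-statistic intervals, all for counting error only.

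The members and lists were chosen with earlier results of these data known. Genes were named by a rule: every gene of the neural and neuroendocrine lists, from the other lists those whose class or covered share differed most, outside the lists the 5 per line with the largest difference in covered share and, of those with no region in the other line, the 5 with the highest number of regions, and the 3 widest regions per line. Alternatives changed the distance, the TSS set, the definition of sharing, the width limits, the gene set and the chromosomes. Differences by treatment were not analysed here.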

Additional observations from a re-analysis of the deposited data

How the results depend on the processing

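No paired analysis was possible because each line has 1 pooled atlas and no replicate values, so no library could be left out. The lists hold no depth, so whether depth differed between the lines is unknown. In 16 of 18 recomputed shares the regions at microRNA genes were line-only less often than distal regions, and both exceptions came with an overlap of 50%. Of the 32 neural and neuroendocrine genes, 4 to 7 were H82-only and 0 H146-only under the 9 alternatives, MIR124-1 and MIR124-2 among them wherever chromosome 8 was kept.

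With 1 kb of flank there were 575 H82 and 483 H146 regions, shared regions had medians of 1078 and 1000 bp, 18.6% of H146 regions were line-only, and H146-only regions had 1.13 CAGCTG and 0.0581 TGTTTAC per kb. With 5 kb there were 1881 and 1630 regions, 864 genes with regions in both lines, shared medians of 720 and 673.5 bp, and 0.896 TAATCC per kb in H82-only regions. With the TSSs of all protein-coding transcripts there were 592 and 525 regions, 354 genes with regions in both lines, an H82 shared median of 716 bp and 26.3% line-only in H146. With an overlap of 50% of both regions, 56.6% of H82 and 48.7% of H146 regions were line-only, with medians of 482 and 412 bp, and H82-only regions had 0.896 CAGATG and 0.408 TAATCC per kb. With sharing also within 500 bp, 19.6% of H146 regions were line-only. With regions of at least 500 bp only, there were 520 and 452 regions, 344 genes with regions in both lines and 81 in H146 only, shared medians of 1545 and 1472.5 bp, line-only medians of 825 and 729.5 bp, 19.9% line-only in H146, and 0.894 CAGATG and 0.510 TAATCC per kb in H82-only regions.

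The covered share of H82 minus that of H146 changed sign in 16 of 535 recomputed differences. With 1 kb it became 5.61 points at MIR133A2, 8.61 at MIR137 and -8.52 at MIR145. With 5 kb it became 5.72 at MIR1179, 6.14 at MIR133A2, 5.99 at MIR138-1, -5.55 at MIR145, 5.68 at MIR196B and -0.56 at MIR219A1. With regions of at least 500 bp it became -2.29 at MIR143 and -14.8 at MIR145. Without regions of 10 kb or more it became -72.9 at MIR1204, -15.9 at MIR142, 83.2 at MIR203A, -4.92 at MIR6726 and -5.76 at MIR6808. The construction of each alternative, which takes in or leaves out regions, accounts for these changes.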
